A study of Mus musculus with 67 samples.

Results

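The Obox family is a group of mouse homeobox genes, and the 6 members described here, Obox1, Obox2, Obox3, Obox5, Obox6 and Obox7, are the rows of the deposited table that carry these symbols, out of 26414 genes. The table held 67 SMART-seq2 libraries (full-length cDNA of very small amounts of RNA) of C57BL/6 mouse preimplantation embryos, made by in vitro fertilisation. Embryos of the light group spent 6 h of the 2-cell stage under 5000 lx of full-spectrum light and were returned to the dark, whereas control embryos stayed at 0 lx. The labels name no transgene or engineered allele. From the 2-cell over the 4-cell, 8-cell and morula stages to the blastocyst, the control group held 7, 6, 4, 13 and 3 libraries and the light group 6, 8, 8, 6 and 6. The labels number an embryo for each library, whereas the study's methods describe single cells picked from dissociated embryos, so that libraries of a group may share an embryo, and the p-values measure the spread between these libraries.

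Homeobox proteins are transcription factors that bind DNA through a conserved domain. Obox genes lie in a cluster found in rodents, and they are known for their expression in the oocyte and the early embryo. Obox1, Obox2, Obox5 and Obox7 are known as maternal members, whose transcripts are stored in the egg, and Obox3 and Obox6 as members expressed from the embryo's own genome. Together the family is known as a set of regulators of zygotic genome activation, the start of transcription from the new genome around the 2-cell stage, at which stored maternal RNA is also degraded.

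All 6 members lie on chromosome 7 and are protein-coding in GENCODE (GRCm38). Obox7 spans chr7:14659496-14665996 on the plus strand, apart from the other members. Obox2 (chr7:15388721-15398545) and Obox1 (chr7:15388948-15556866), both on the plus strand, overlap, and 59 of their exon bases are shared. Obox3 (chr7:15479825-15639902) lies on the minus strand, Obox5 (chr7:15750131-15759800) on the plus strand and Obox6 (chr7:15833241-15839678) on the minus strand. The annotated exons cover 1900 bases in Obox1, 1646 in Obox2, 3191 in Obox3, 2136 in Obox5, 1344 in Obox6 and 1602 in Obox7.

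The sequences before the starts of the genes are shown because the 4 maternal members share a stretch of them that Obox3 lacks. The fall in level after the 2-cell stage, described further on, was not particular to the members with this stretch, since Obox3 fell as well. RefSeq (GRCm38.p6) gave the 250 bases before its own start of transcription for 5 members. These starts differ from the GENCODE spans above, which take in the earliest transcript of each gene, so that the windows lie partly, or for Obox1 wholly, within those spans. They lie at chr7:15547007-15547256 for Obox1, chr7:15388601-15388850 for Obox2, chr7:15750120-15750369 for Obox5 and chr7:14659458-14659707 for Obox7, all on the plus strand, and at chr7:15639778-15640027 on the minus strand for Obox3. Capitals mark a block of 37 bases identical in Obox1, Obox2, Obox5 and Obox7, found as the longest stretch common to these 4. Obox3 was left out of that search, and no promoter was listed for Obox6.
Obox1: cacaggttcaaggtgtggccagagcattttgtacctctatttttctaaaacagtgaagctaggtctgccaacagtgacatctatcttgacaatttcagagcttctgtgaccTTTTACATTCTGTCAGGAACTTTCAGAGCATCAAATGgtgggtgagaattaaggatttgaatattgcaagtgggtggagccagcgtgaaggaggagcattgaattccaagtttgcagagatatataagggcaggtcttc
Obox2: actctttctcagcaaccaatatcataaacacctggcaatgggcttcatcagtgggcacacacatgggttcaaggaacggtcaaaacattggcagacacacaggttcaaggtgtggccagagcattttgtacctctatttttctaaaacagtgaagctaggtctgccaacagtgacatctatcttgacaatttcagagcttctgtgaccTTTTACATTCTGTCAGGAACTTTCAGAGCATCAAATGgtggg
Obox5: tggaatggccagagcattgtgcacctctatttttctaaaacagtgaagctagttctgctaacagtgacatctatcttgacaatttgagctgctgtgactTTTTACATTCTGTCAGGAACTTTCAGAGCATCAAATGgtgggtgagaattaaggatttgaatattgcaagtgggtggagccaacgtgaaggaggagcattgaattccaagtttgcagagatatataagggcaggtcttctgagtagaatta
Obox7: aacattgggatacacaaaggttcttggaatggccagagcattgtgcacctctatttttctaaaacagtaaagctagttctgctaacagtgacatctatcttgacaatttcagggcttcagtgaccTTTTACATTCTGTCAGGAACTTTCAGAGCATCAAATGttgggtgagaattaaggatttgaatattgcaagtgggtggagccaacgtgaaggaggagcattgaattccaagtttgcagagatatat
Obox3: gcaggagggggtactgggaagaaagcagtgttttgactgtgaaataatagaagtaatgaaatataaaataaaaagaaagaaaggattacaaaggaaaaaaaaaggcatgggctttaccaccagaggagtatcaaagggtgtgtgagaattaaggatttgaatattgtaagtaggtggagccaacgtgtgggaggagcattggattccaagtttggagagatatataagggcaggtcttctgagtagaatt
This block was present in 4 of the 32851 promoters of the table, those of Obox1, Obox2, Obox5 and Obox7, and it ended 102, 5, 114 and 88 bases before the respective starts. The Obox1 and Obox2 promoters were identical over the 153 bases that aligned. Obox5 and Obox7 matched at 218 of 224 aligned bases (97.3%), and Obox5 and Obox1 at 228 of 238 (95.8%). The Obox3 promoter was more distant, at 69.2% identity with Obox1 and 72.1% with Obox5. The homeodomain motif TAATCC, searched on both strands, was found once in the Obox3 window and in none of the other 4 windows, and 6.25% of all promoters of the same length held it. Another homeodomain motif, TAATTG, was found in none of the 5 windows and in 7.17% of all promoters. The exact stretch TATAAA was found in the Obox3 window only, against 12.4% of all promoters. This search does not count tatataag, which the windows of Obox1, Obox3 and Obox5 hold near their end. Other TATA-like stretches were not searched.

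Total reads per library lay between 836011 and 8551674, of which 54.0% to 89.3% fell on CT010467.1 and Gm42418 alone, leaving 318177 to 2867034 reads for all other genes. Each value is a read number over the library's size factor, not divided by transcript length, and groups were compared on the log2(value + 1) scale. The ratio of Gm42418 to CT010467.1 did not overlap between the groups at the 2-cell stage, at 2.34 to 4.03 in control and 1.58 to 1.77 in light, nor at the 8-cell stage (2.01 to 2.34 against 1.52 to 1.71) or in morulae (2.34 to 4.14 against 1.49 to 1.67). Its part in the light and control differences was not tested. If a library held a whole embryo, less RNA in every cell and fewer cells with that RNA cannot be told apart. Reads of near-identical copies are uncertain: of the 150-base windows in their transcripts, the length of a read, 34.1% in Obox1 and 38.2% in Obox2 occur in each other's transcripts, against 4.54% in Obox3 (with the pseudogene Obox3-ps3) and 0% in Obox5, Obox6 and Obox7. Of windows of 50 bases, 57% in Obox1, 65% in Obox2, 20% in Obox3, 18% in Obox5, 5% in Obox6 and 21% in Obox7 occur in transcripts of other genes.

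At the 2-cell stage all 6 members were measured, and in control embryos Obox5 had the highest mean per length. The mean per kilobase of exon was 281 in Obox5, 132 in Obox6, 60.5 in Obox1, 50.1 in Obox2, 32.7 in Obox3 and 15.4 in Obox7. In light embryos Obox6 came first at 287 per kilobase, ahead of Obox5 at 82.2. The spreads over libraries of Obox1, Obox2, Obox3 and Obox6 overlapped, as did those of Obox5 and Obox6 per kilobase in both groups. No order among the members was tested.

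**Figure D1:**
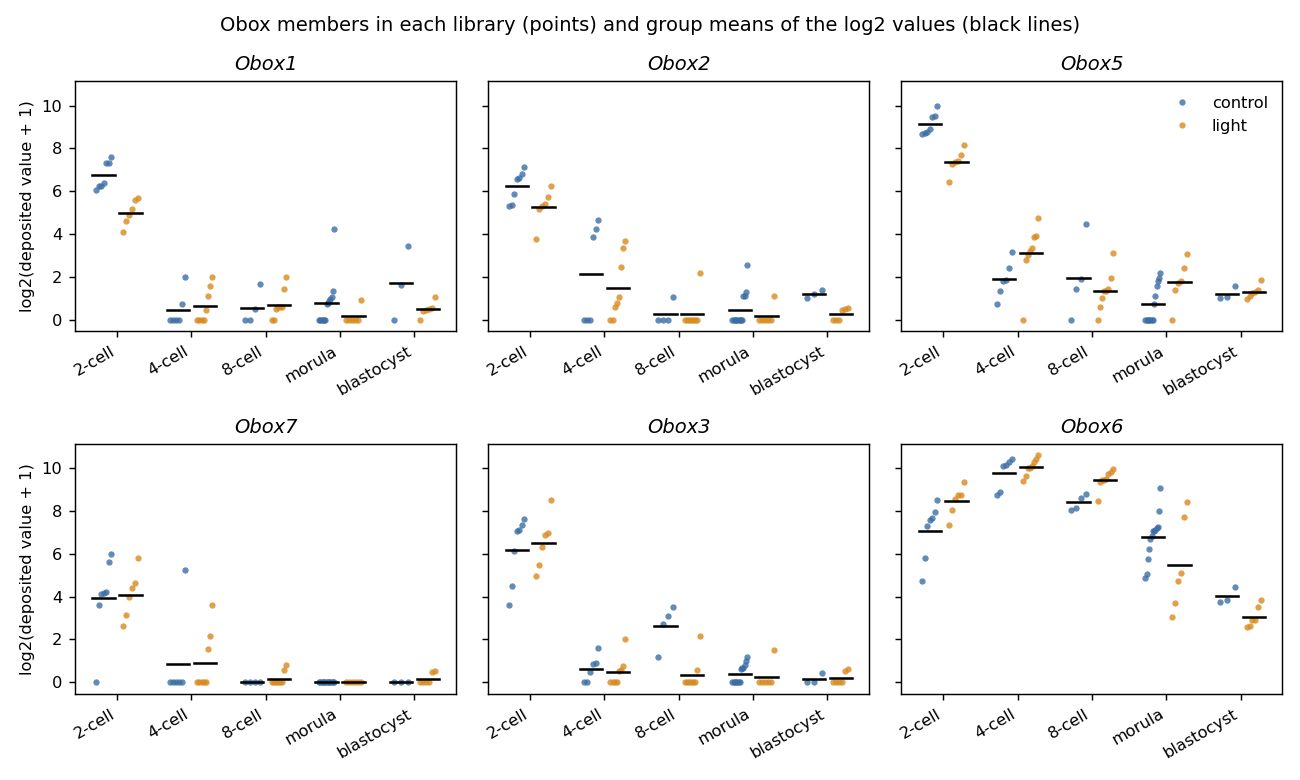
Level of the 6 Obox members in each library on the log2(deposited value + 1) scale (y axis) at the 5 stages (x axis), control in blue and light in orange, with black lines at the mean of the log2 values. Obox1, Obox2, Obox3, Obox5 and Obox7 have their highest mean in 2-cell embryos, while Obox6 peaks at the 4-cell stage, with means of 963 in control and 1104 in light.

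Light against control at the 2-cell stage asks for the response right after exposure. The maternal members Obox1 and Obox5 were lower in light embryos, by 3.32- and 3.42-fold on the log2(value + 1) scale, and Obox6 was higher by 2.62-fold. Obox2, Obox3 and Obox7 did not pass the test. Thus 3 of the 6 members were called (limma, adjusted p under 0.05 and at least 2-fold), whereas 10.5% of all 18532 genes tested were called. Lower calls made up 4.96% and higher calls 5.53% of the genes tested.

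Obox5, a maternal member, had a lowest value of 409, a median of 483 and a highest value of 1019 in the 7 control libraries (600 ± 227, SD), against 85.1, 166 and 280 in the 6 light libraries (176 ± 64.2, SD). Every light library was below every control library. The log2 fold change was -1.77 (SE 0.30), with a limma adjusted p of 0.000275. Obox1, also maternal, ran from 66.2 through a median of 82.3 to 190 in control (115 ± 52.0, SD, n = 7) and from 16.1 through 31.8 to 50.5 in light (33.4 ± 13.5, SD, n = 6). Here too the groups did not overlap, and 4.15% of all genes tested showed no overlap at this stage. Its log2 fold change was -1.73 (SE 0.43, adjusted p = 0.00788, limma).

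Obox2, whose transcripts share long stretches with Obox1, ranged from 39.1 to 138 in control with a median of 93.8, and from 12.4 to 73.8 in light with a median of 40.1. The ranges overlapped, and the log2 fold change of -0.97 (SE 0.46; 95% interval -1.92 to -0.031) had an adjusted p of 0.178 in limma. Since reads may be split between these genes, their sum was formed after the values were seen, and it ran from 114 to 303 in control (median 176) and from 28.5 to 124 in light (median 70.2), an overlap that Obox1 alone did not have. This overlap rested on light library 16, the library with the fewest reads (836011), since the next highest light value was 98.8. Obox7, the maternal member with the lowest level, had medians of 17.0 in control and 17.4 in light, and its log2 fold change of 0.14 had a 95% interval of -1.48 to 1.76 (adjusted p = 0.936, limma) and turned to -0.47 in edgeR.

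Obox6, which is expressed from the embryo's genome and is known to aid reprogramming of somatic cells, moved in the opposite direction. Its values ran from 25.5 through a median of 190 to 360 in control (177 ± 114, SD, n = 7) and from 163 through 401 to 655 in light (386 ± 168, SD, n = 6), so that the groups overlapped. The log2 fold change was 1.39 (SE 0.44, adjusted p = 0.0395, limma). This call was lost, at an adjusted p of up to 0.108, when control library 9 or 10 or light library 9, 10, 12 or 14 was left out in turn, and at 0.0987 without the filter on low values. The values of the control libraries 9 and 10, 25.5 and 55.2, were the lowest of the stage.

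Obox3, the other member expressed from the embryo's genome, spread widely in both groups, with 11.0, 133 and 196 in control and 30.1, 97.7 and 362 in light as lowest, median and highest values. Its log2 fold change of 0.32 (95% interval -0.867 to 1.503) gave an adjusted p of 0.778 in limma. Light library 15 held the value of 362 and control library 9 that of 11.0, and the log2 fold change turned to -0.080 without the former and to -0.12 without the latter.

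Of the summed values of the 6 members, Obox6 made up a median of 19.1% in control and 51.2% in light at this stage, while Obox5 made up 53.8% and 23.8%, which restates the calls of these members within each library. At the 4- and 8-cell stages the median share of Obox6 was between 97.2% and 99.5% in both groups.

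**Figure D2:**
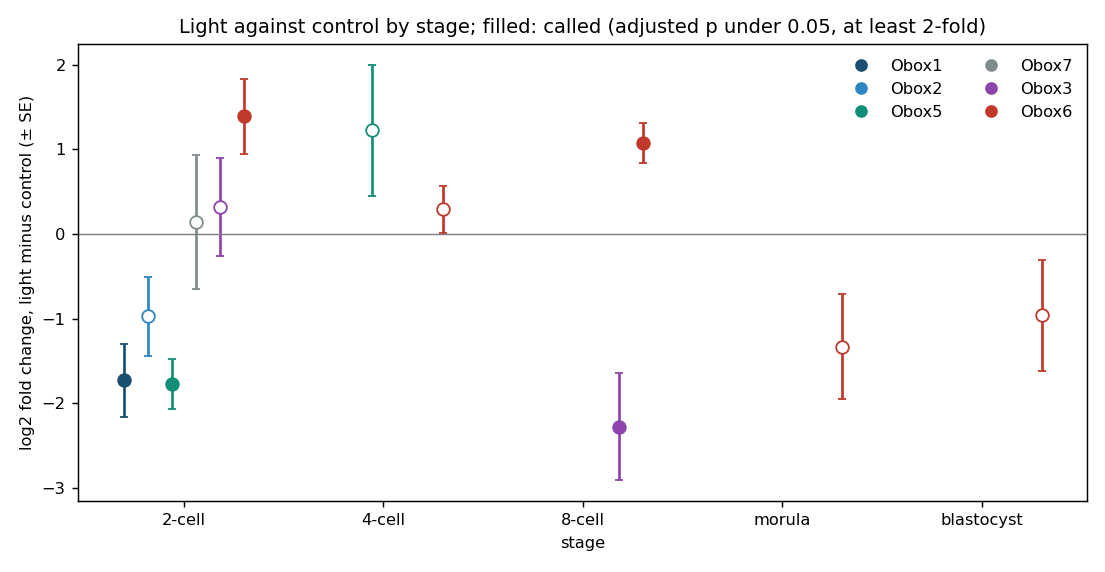
Difference between light and control embryos for the members (log2 fold change, y axis, error bars SE) at each stage (x axis), for members that were called or had a mean of at least 10 in a group; filled circles are called and open circles are not. Obox1 and Obox5 lie near -1.7 and Obox6 at 1.39 at the 2-cell stage, and Obox6 (1.07) and Obox3 (-2.28) are called at the 8-cell stage.

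Other gene groups at the 2-cell stage were read beside the family, where 5.53% of all genes tested were called higher and 4.96% lower. Of 8 maternal oocyte RNAs, 4 fell and none rose, and their median was -1.24 on the log2 scale, against 0.00025 for all genes tested. Bmp15, an oocyte growth factor, fell by 2.19 on the log2 scale (adjusted p = 1e-06, limma), and Oosp1, an oocyte-secreted protein, fell by 1.62 (adjusted p = 0.00492, limma). The summed level of the 8 RNAs was 2643 to 5620 in control and 856 to 2285 in light, without overlap, and its part in the lower Obox1 and Obox5 was not tested. Of 27 regulators of zygotic genome activation tested, 6 were higher and 1 was lower, with a median of 0.40. Dppa2, an activator of genes of the 2-cell stage, was 2.15 higher on the log2 scale (adjusted p = 0.00101, limma), and its partner Dppa4 had an adjusted p of 0.00221 and a log2 fold change of 1.84.

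Among 27 other homeobox genes of oocytes and embryos tested, Crxos, a neighbour of the Obox cluster, was higher by 1.48 (log2; adjusted p = 0.0107, limma) and Pbx2, a cofactor of HOX proteins, fell by 3.64 (adjusted p = 0.00213, limma). Hhex was the other gene called lower, and the median of this list was -0.24. With 1 higher and 2 lower of 27, the list was near the 10.5% of all genes called at this stage. The oocyte transcription factors gave 1 higher and 1 lower of 13 tested, with a median of 0.13, and the markers of the 2-cell stage gave 1 higher of 8, Tdpoz1, with a median of -0.63. Of 9 cumulus cell markers listed, 5 were present in the data and 4 were tested. Tnfaip6 was called higher and none lower, and the median log2 fold change was 1.18. Their summed level was 23.0 to 104 in control and 72.1 to 231 in light with Fshr at 0 in all light libraries. The part of cumulus cells in the result was not tested. Sperm markers summed to 0 to 10.4 in control and 0 to 7.77 in light, with Prm2 and Tnp2 at 0 in both groups.

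**Figure D3:**
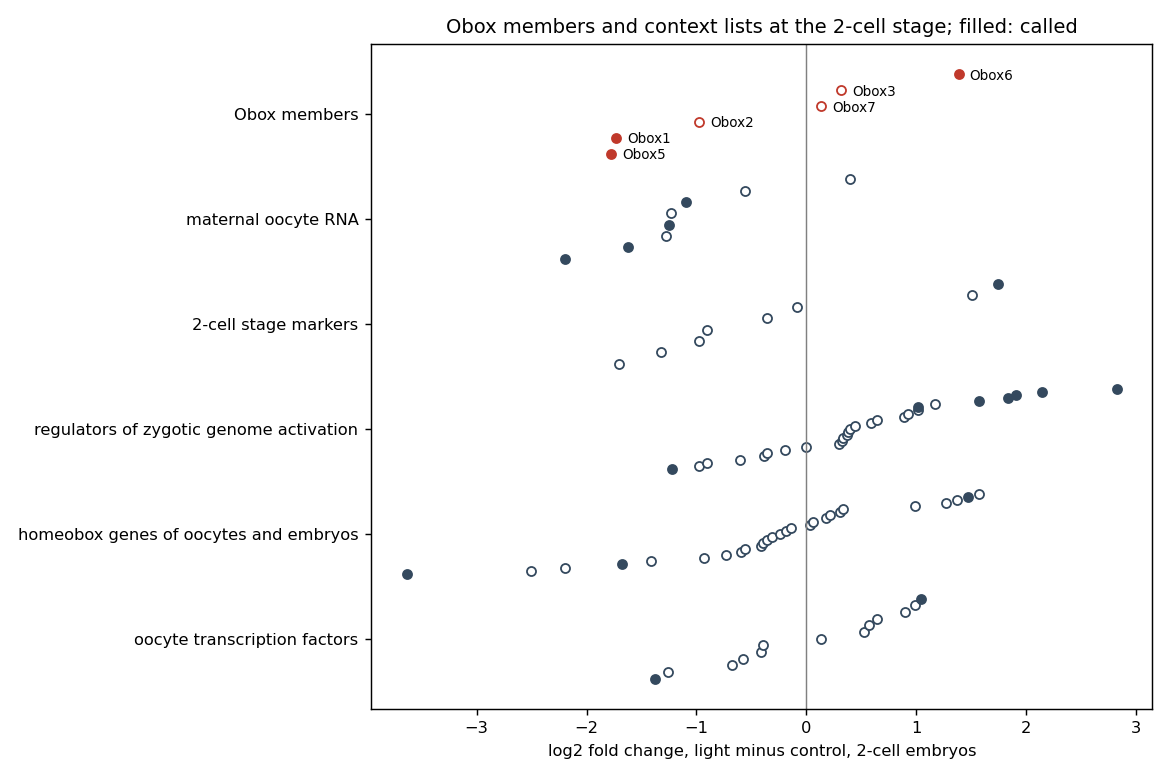
Log2 fold change of light against control 2-cell embryos (x axis) for the Obox members in red and the tested genes of 5 other gene lists in dark blue (rows), filled where called. Obox1 (-1.73) and Obox5 (-1.77) lie with the maternal oocyte RNAs, whose median is -1.24, and Obox6 (1.39) lies on the opposite side. The maternal members Obox2 (-0.97) and Obox7 (0.14) and the embryonic member Obox3 (0.32) are not called.

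Later stages of the light and control comparison were then examined. In 4-cell embryos none of the 5 members tested was called by limma, none had an unadjusted p under 0.05 and none was called by edgeR, while 1.45% of all genes were called. Obox6 had values of 434, 1113 and 1387 in control and 683, 1069 and 1568 in light as lowest, median and highest, and its log2 fold change was 0.29 (95% interval -0.28 to 0.86; adjusted p = 0.62, limma). Obox5 had a mean of 3.23 in control and 10.4 in light, and a log2 fold change of 1.23 (95% interval -0.36 to 2.81; adjusted p = 0.42, limma).

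In 8-cell embryos Obox6 was higher and Obox3 lower in light, 2 of the 4 members tested, against 9.21% of all genes called, 5.91% higher and 3.30% lower. Obox6 was at 441, 282, 264 and 394 in the 4 control libraries (345 ± 85.8, SD) and ran from 359 through a median of 710 to 998 in the 8 light libraries (736 ± 193, SD). Light library 5, at 359, lay within the control range and the other light libraries, at 655 or more, stood above every control library. The log2 fold change was 1.07 (SE 0.23, adjusted p = 0.00475, limma). With the libraries rescaled by a median of ratios the change was 0.90, under the 2-fold limit, at an adjusted p of 0.0138. That scaling moved the median of all genes by -0.13, from 0.16 to 0.029.

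Obox3 was low in both groups at the 8-cell stage, at 5.55, 7.45, 10.4 and 1.25 in control, which rest on 6, 14, 9 and 3 reads, and at 0 in 6 of the 8 light libraries, with the highest at 3.48. The log2 fold change was -2.28 (SE 0.63, adjusted p = 0.0227, limma), and edgeR on the recovered reads gave an adjusted p of 0.143. Obox3 passed the filter on low values through the control libraries, since in light only library 8 was above 1. A call in the other direction was thus hardly possible, and the count of called members above includes Obox3. Leaving out control library 2 or control library 3 took both Obox3 and Obox6 out of the calls of this stage, where the adjusted p rose to at most 0.0653 for Obox3. For Obox6 the log2 fold change was then 0.99 or 0.95, just under the 2-fold limit, while the adjusted p of at most 0.023 still passed. Pou5f1, a pluripotency factor, was higher in light at this stage by 2.07 on the log2 scale (adjusted p = 0.000532, limma), as were the blastocyst markers Krt8 by 3.08 and Krt18 by 2.51 (adjusted p = 0.0125 and 0.038, limma). Of the homeobox list that holds Pou5f1, 2 of 21 genes tested were called higher and none lower. For the blastocyst markers it was 2 of 5 and none, and 5.91% of all genes were called higher.

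In morulae and blastocysts limma called none of the 4 members tested, and neither did edgeR, against 1.18% and 5.34% of all genes. Obox6 was the only member with an unadjusted p under 0.05 at either stage, in morulae. There it ran from 28.7 through a median of 131 to 546 in control and from 7.27 through 29.6 to 339 in light, and its log2 fold change of -1.33 (95% interval -2.60 to -0.072) had an adjusted p of 0.292 in limma. In blastocysts it was at 12.6, 20.9 and 13.5 in the control libraries and at 4.99 to 13.2 in light with a median of 6.51. Its change was -0.96 on the log2 scale (adjusted p = 0.38, limma), and the median over all genes was -0.64 at this stage.

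From the 2-cell to the 4-cell stage all 6 members were called in control embryos, 5 lower and Obox6 higher. In all 46.1% of genes were called, and 32.3% of all genes were called lower and 13.8% higher. The log2 fold change was -7.27 in Obox5, -6.28 in Obox1, -5.56 in Obox3, -4.12 in Obox2 and -3.08 in Obox7 (limma adjusted p at most 0.0139). In 5 of the 6 members, all but Obox7, the 4-cell and 2-cell libraries did not overlap, against 20.4% of all genes. In edgeR Obox7 did not pass, at an adjusted p of 0.243. Its control 4-cell library 2 held 36.7, on 56 reads, and the other libraries of this group held no read. Obox1, Obox3 and Obox7 passed the filter on low values through the 2-cell libraries, as a single 4-cell library of each was above 1.

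Obox5 fell from a mean of 600 to 3.23 ± 2.55 (SD, n = 6), and Obox1 from 115 to 0.603, with 4 of 6 libraries at 0. Obox6 rose from 177 to 963 ± 408 (SD, n = 6), by 2.69 on the log2 scale (SE 0.51, adjusted p = 0.000176, limma). Of the maternal oocyte RNAs 7 of 8 fell over the same interval, as did 7 of 8 markers of the 2-cell stage, and the median log2 fold changes were -4.15 and -4.59, against -4.84 for the 6 Obox members and -0.72 for all genes.

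In light embryos all 6 members were likewise called over this interval, 5 lower and Obox6 higher, where 36.5% of all genes were called, 29.0% lower and 7.43% higher. Obox5 went from 176 to 10.4 ± 7.53 (SD, n = 8), which is -4.28 on the log2 scale, and Obox1 from 33.4 to 0.802, a change of -4.37. The changes were -6.03 in Obox3, -3.78 in Obox2 and -3.17 in Obox7, and Obox6 rose by 1.59 (SE 0.25, adjusted p = 1.33e-05, limma). Obox3 passed the filter on low values through the 2-cell libraries, as only light 4-cell library 9, at 3.04, was above 1. A call of Obox3 in the other direction was thus hardly possible, and the count of 6 includes it. The test of the difference between the groups, an interaction term, called 1 of the 6 members against 3.07% of all genes. Obox5 fell less in light, by a difference of 3.00 on the log2 scale (SE 0.74, adjusted p = 0.0221, limma). The interaction is the group difference at the 4-cell stage less that at the 2-cell stage, so it counts the 2-cell result again. For Obox5 the 2-cell difference was -1.77, called above, and the 4-cell difference of 1.23 was not called. With a pseudocount of 0.1 the interaction of Obox5 was 2.98 at an adjusted p of 0.141 (limma). Obox1 differed by 1.91 (95% interval 0.26 to 3.56, adjusted p = 0.187, limma) and Obox6 by -1.10 (95% interval -2.26 to 0.066, adjusted p = 0.302, limma).

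**Figure D4:**
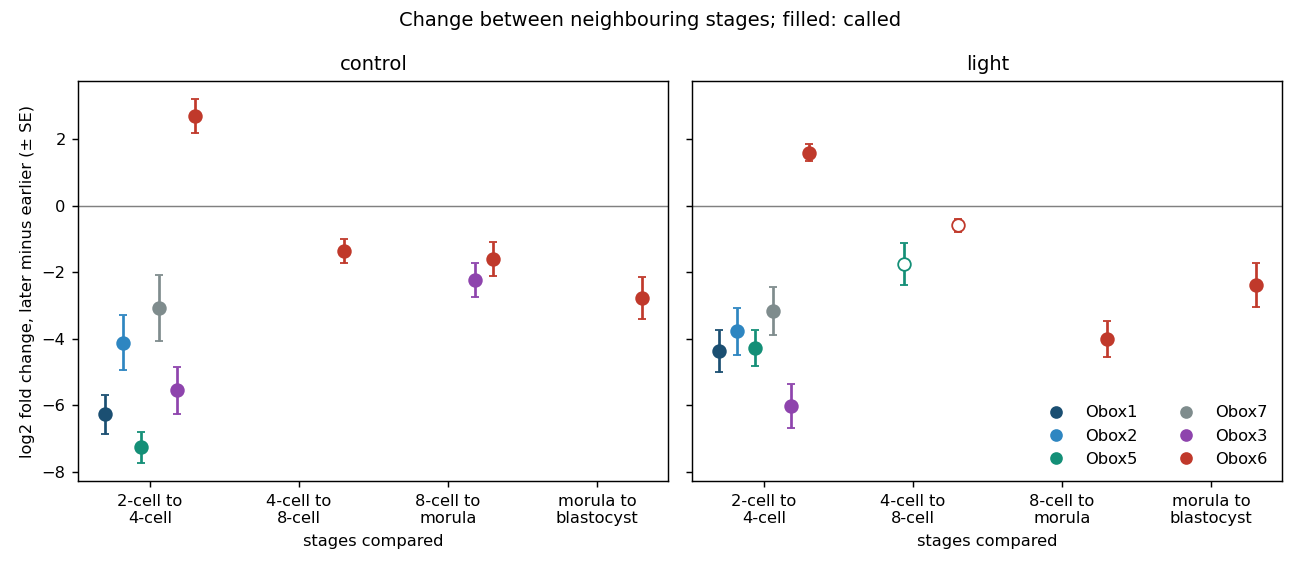
Change between neighbouring stages (log2 fold change, later minus earlier, y axis, error bars SE) in control (left) and light (right) embryos for members called or with a mean of at least 10, filled where called. In both groups 5 members drop and Obox6 rises from the 2-cell to the 4-cell stage; the change of Obox5 is -7.27 in control and -4.28 in light.

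After the 4-cell stage Obox6 was the member that remained at a high level, and it declined in both groups. In control it went from 963 in 4-cell to 345 in 8-cell embryos, to 147 ± 134 (SD, n = 13) in morulae and 15.7 ± 4.54 (SD, n = 3) in blastocysts. The step to the 8-cell stage was -1.37 on the log2 scale (adjusted p = 0.0267, limma, 6.31% of all genes called), but -0.57 (adjusted p = 0.405) under median-ratio scaling, which moved the median of all genes by 0.60, and -0.78 in edgeR (adjusted p = 0.299). The call was also lost, at an adjusted p of up to 0.0986, without control 4-cell library 4, 5 or 6 or control 8-cell library 2, 3 or 4. The step to the morula was -1.61 (adjusted p = 0.0379, limma, 14.3% of all genes called). Its adjusted p was 0.0629 without the filter and up to 0.119 when any of the 4 control 8-cell libraries or control morula 18 was left out. The step to the blastocyst was -2.77 (adjusted p = 0.00415, limma, 11.9% of all genes called).

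In light Obox6 went from 1104 to 736 at the 8-cell stage, a log2 fold change of -0.59 (adjusted p = 0.0344, limma) that stayed under the 2-fold limit. Neither limma nor edgeR called any of the 5 members tested at this step, where 3 had an unadjusted p under 0.05 and 10.6% of all genes were called. The change of Obox6 was 0.0095 under median-ratio scaling, which moved the median of all genes by 0.41, and 0.023 in edgeR. From the 8-cell stage to the morula it fell by 4.01 (SE 0.55, adjusted p = 1.98e-05, limma, 11.8% of all genes called), with every morula library below every 8-cell library, as in 3.57% of all genes without overlap. The further step to the blastocyst was -2.40 (adjusted p = 0.00877, limma, 20.7% of all genes called) and -1.71 under median-ratio scaling (adjusted p = 0.0804). Light morulae split widely, since the median was 29.6 and the highest value 339.

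The other members were low in these stages, with group means of at most 6.30. The highest single values were 20.8 for Obox5 in control 8-cell library 2, 17.6 for Obox1 in 1 control morula, 10.4 for Obox3 in control 8-cell library 3 and 9.99 for Obox1 in control blastocyst 1, and 6 of the 13 control morulae had no Obox1 read. Obox7 had no read in any of the 4 control 8-cell, 13 morula and 3 blastocyst libraries, where a count of 0 allows 3 reads, or values of up to 3.48, 3.16 and 1.93. Obox3 alone among them showed a called change after the 4-cell stage, a decrease of 2.24 from the 8-cell stage to the morula in control (adjusted p = 0.00319, limma), from a mean of 6.18 to 0.362. It passed the filter on low values through the 8-cell libraries, since among the morulae only library 2 was above 1. Obox5 passed in light from the 4-cell to the 8-cell stage only without 4-cell library 11 or 8-cell library 5, and its change with all libraries was -1.76 (adjusted p = 0.0657, limma).

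Patterns over the 10 combinations of stage and group were compared by Pearson correlation of the mean log2 values, as a description across points that share libraries. Obox1, Obox2, Obox3, Obox5 and Obox7 correlated with each other at 0.89 or above, while Obox6 correlated with them at 0.036 to 0.245. Among 11121 other genes with a mean of at least 10 somewhere, the nearest to Obox5 were Efcab6 (0.996) and Bmpr1b, a BMP receptor, and the nearest to Obox1 were Cacnb2, a calcium channel subunit (0.997), and Pdzph1 (0.996). Those nearest to Obox2 were Fbxw20 (0.994) and Nlgn1 (0.99), to Obox3 Tenm3 (0.993) and Stbd1 (0.992), to Obox7 Slain1os (0.997) and Bcl7c (0.997). For Obox6 they were Wdr43, a ribosome biogenesis factor (0.985), and Ankrd10 (0.979).

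The table held 18 other rows with an Obox symbol, mostly annotated pseudogenes. Obox8, a protein-coding gene on chromosome 7, had means of 53.6 in control and 204 in light 2-cell embryos. In 4-cell embryos they were 80.5 and 262, in 8-cell embryos 145 and 58.1, and later at most 2.49. Its light libraries ranged from 13.3 to 365 at the 2-cell stage, which covers the control range of 9.37 to 98.2 in part. Obox3-ps2 had means of 62.8 in control and 152 in light at the 2-cell stage and Obox3-ps5 of 68.6 and 71.1, so that these copies, which share short stretches with Obox3, were as high as some members at that stage.

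**Figure D5:**
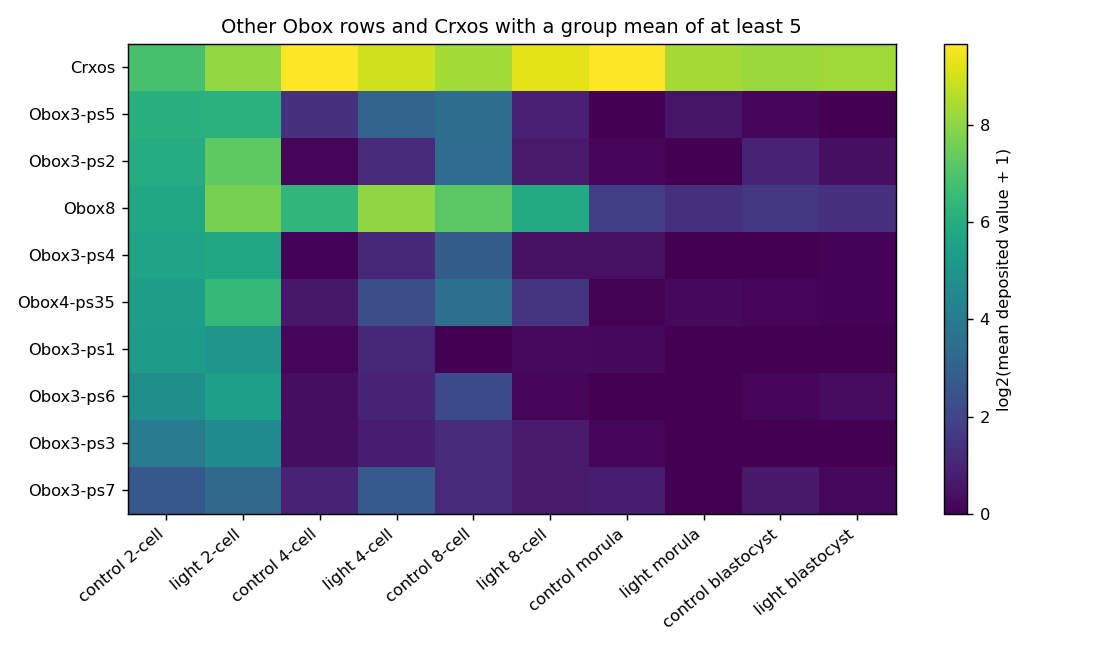
Mean level, as log2(mean deposited value + 1) in colour, of the 9 other Obox rows with a group mean of at least 5 and of the neighbouring homeobox gene Crxos (rows) in the 10 groups (columns). The Obox3 pseudogenes are high at the 2-cell stage in both groups, and Crxos stays high through the blastocyst, at 293 in control and 311 in light.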

How the data were processed

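RNA of 67 libraries was measured by SMART-seq2 with reads of 150 bases. The labels name HISAT2, HTSeq 0.9.1 and the build mm9. The authors deposited signal values, which are read numbers over a library's size factor. RPKM is named in the study's methods, yet the values carry no division by length, and at least 99.97% of values in each library were whole reads within 0.01 after rescaling. Gene positions are from GENCODE (GRCm38), matched by symbol for 26329 of 26414 genes (99.7%), and promoters from RefSeq (GRCm38.p6) in 5 of 6 members.

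Groups were compared with limma (version 3.58.1 under R 4.3.3, moderated with a mean-variance trend) on log2(value + 1), for genes above 1 in at least 3 of the libraries fitted, with Benjamini-Hochberg adjustment over all genes tested. A gene was called at an adjusted p under 0.05 and at least 2-fold. Fold changes on this scale understate changes of low genes. Genes read in 1 group alone can pass the filter, and a call in the other direction is then hardly possible. A single member's change was reported where it was called or where a group mean reached 10. Scripts were tested on simulated data. The alternatives were a pseudocount of 0.1, no filter, median-ratio scaling, edgeR 4.0.16 on the recovered reads, the replicate number as a block, and leaving out each library. Named were all members, the 2 genes nearest to each in pattern, and at most 2 called genes of each list with the smallest p; Hhex, Tdpoz1 and Tnfaip6 complete small counts. Members and lists were chosen with earlier results of these data known. Intervals and floors cover the spread between libraries or counting error only. The pair of closest libraries differed by more than counting error (chi-square per degree of freedom 7.39).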

Additional observations from a re-analysis of the deposited data

Results flagged for a closer look

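Within groups of 4 to 10 libraries, 18 sets of member values with a mean of at least 10 were examined for a library far from the others. Sets with a lower mean were not examined. Of the 18 sets 2 stood out, where chance gives about 1 in 20 if values are normally spread. Obox3 in light 2-cell library 15 was 362, far above the other libraries of its group. Obox7 in light 2-cell library 14 was 55.3, the highest of its group by a wide gap. The change of Obox5 from the 2-cell to the 4-cell stage differed between light and control by 3.00 on the log2 scale (interaction term, limma adjusted p = 0.0221), with -7.27 in control and -4.28 in light. This includes the called light against control difference of -1.77 at the 2-cell stage, whereas that of 1.23 at the 4-cell stage was not called.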

How the results depend on the processing

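Counts of called members kept within 1.5 times the reported count except as follows. At the 8-cell stage light against control gave 1 called member under median-ratio scaling and 1 in edgeR, against 2. The control step from the 4-cell to the 8-cell stage gave 0 without the filter, under median-ratio scaling and in edgeR, against 1, and the control step to the morula gave 1 without the filter, against 2. The light step from morula to blastocyst gave 0 under median-ratio scaling, and the interaction gave 0 with a pseudocount of 0.1. Leaving out each library in turn gave 2 to 3 called members in 2-cell embryos, 0 to 2 in 8-cell embryos, 0 to 1 for the control step from the 4-cell to the 8-cell stage, 1 to 2 for the control step to the morula and 0 to 1 for the light step from the 4-cell to the 8-cell stage.

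Directions turned only for members that had not been called. Obox7 at the 2-cell stage was -0.47 in edgeR, the light step of Obox6 from the 4-cell to the 8-cell stage was 0.0095 under median-ratio scaling and 0.023 in edgeR, and in the interaction Obox2 was -0.22 in edgeR and Obox7 was 0.061 with a pseudocount of 0.1 and 0.16 under median-ratio scaling. With single libraries left out, Obox3 at the 2-cell stage ranged from -0.12 to 0.63, Obox7 from -0.52 to 0.48, and in the interaction Obox2 from -0.088 to 0.84 and Obox7 from -0.48 to 0.78. The cause was not tested. Depth limits what can be said of Obox3 and the maternal members after the 4-cell stage, where most libraries held few or no reads of them.

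Replicate numbers were shared by some libraries, and same-numbered libraries did not deviate together (correlations of -0.087 to 0.069). With at most 5 shared numbers in a comparison, this cannot settle whether they share more than a number. With the replicate number as a block, fitted on the libraries that share one, 0 members were called at the 2-cell stage, in the control steps from the 4-cell to the 8-cell stage, to the morula and to the blastocyst, in the light step from the 2-cell to the 4-cell stage and in the interaction. In that block fit Obox6 at the 4-cell stage was -0.071 and Obox7 in the interaction 0.39.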
